A study of Mus musculus with 32 samples.

Results

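Trex1, Rnaseh2a, Rnaseh2b, Rnaseh2c, Samhd1, Adar, Dnase2a and Lsm11 encode nucleases and other nucleic acid enzymes or cofactors, loss of which causes Aicardi-Goutières syndrome (AGS) or a related type I interferonopathy. These 8 genes were taken by name from the 54281 gene identifiers of a count table, and all 8 passed the filter on low counts. The question was whether the other 7 genes changed their mRNA level when Trex1 was lost. The cells were bone marrow-derived macrophages (BMDMs), grown in culture from mouse bone marrow with L929 supernatant, and total RNA was sequenced. All mice carried R26-CreERT2, a Cre recombinase expressed from the Rosa26 locus in every cell type, which stays inactive until 4-hydroxytamoxifen (4-OHT) binds to it. In Trex1 FL/FL BMDMs active Cre can remove the loxP-flanked part of both alleles, whereas Trex1 WT/FL BMDMs keep a wild type allele and serve as controls. Cells of each genotype received 2 µg/ml 4-OHT for 22 h or were left untreated and were harvested on day 1, 2, 3 or 4 after this exposure. The 16 combinations of genotype, treatment and day were covered by 2 libraries each, 32 in total, for which the labels give no age, sex, animal, batch or replicate number. The p-values therefore measure the spread between these libraries, which may be technical.

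The 8 proteins act on nucleic acids that can trigger innate sensors. TREX1 is the main cytosolic exonuclease for DNA 3' ends, DNASE2 degrades DNA in lysosomes, and SAMHD1 hydrolyses the deoxynucleotides needed for DNA synthesis. The 3 subunits of RNase H2, encoded by Rnaseh2a, Rnaseh2b and Rnaseh2c, remove ribonucleotides from DNA. ADAR edits adenosine to inosine in double-stranded RNA, and LSM11 belongs to the U7 particle that processes histone mRNA. When they are missing, self DNA activates cGAS and STING, or self RNA activates MDA5, and type I interferon (IFN) and IFN-stimulated genes (ISGs) are induced.

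Library totals ranged from 35120505 to 63760884 (median 44841991), with 36698887 to 63760884 in 4-OHT-treated Trex1 FL/FL and 45077879 to 61462516 in 4-OHT-treated Trex1 WT/FL BMDMs. Levels are given as CPM, the estimated counts scaled to library size with TMM factors. All 8 macrophage markers were detected in each library (Lyz2 at 11100 CPM or more, Csf1r at 1310 CPM or more), whereas Ly6g, Elane, Flt3, Xcr1, Cd3e, Cd3g, Ms4a1, Cd79a, Pdgfra, Hbb-bs and Klf1 stayed under 1 CPM in all 32 libraries and Cd8a was at 0. Of the T cell markers only Cd4 was present, with up to 52.9 CPM. Other markers passed 1 CPM at low levels. Their highest values were 7.99 CPM for S100a9, 6.39 for S100a8, 4.0 for Ngp and 1.97 for Mpo (neutrophil and granule). Zbtb46 (dendritic) reached 2.03 CPM, and Col1a1 and Col1a2 (fibroblast) reached 1.16 and 1.33 CPM. Replicate 2 of untreated Trex1 FL/FL BMDMs on day 1 stood apart from the other day 1 libraries. Of its 9544 genes with more than 5 CPM in each of the other 7 libraries, 45 lay under 50% of the lowest of them, against 0 to 4 such genes for every other day 1 library. Rnaseh2c was among the 45 genes, and its results are given with and without this library.

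Genes were tested with the quasi-likelihood test of edgeR over all 15257 genes that passed the filter, and a gene was called changed at a Benjamini-Hochberg adjusted p below 0.01. Between 4-OHT-treated genotypes on day 1, Trex1 was the only member called, in a comparison in which 0.00655% of all tested genes were called higher and 0.0131% lower in Trex1 FL/FL BMDMs. None of the other 7 genes had an unadjusted p below 0.05, and DESeq2 called 0 of them as well. On each of days 2, 3 and 4, Samhd1 and Adar were higher and Trex1 was lower, while the other 5 genes were not called. DESeq2 called the same 3 members on these days. The background of genes called higher was 5.69%, 6.69% and 9.84% on days 2, 3 and 4, and that of genes called lower was 2.48%, 5.42% and 11.7%. With the added requirement of the study, an absolute log2 fold change above 1.5, Trex1 alone remained on each day, against 0.0131%, 0.583%, 0.872% and 2.98% of all genes on days 1 to 4.

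**Figure D1:**
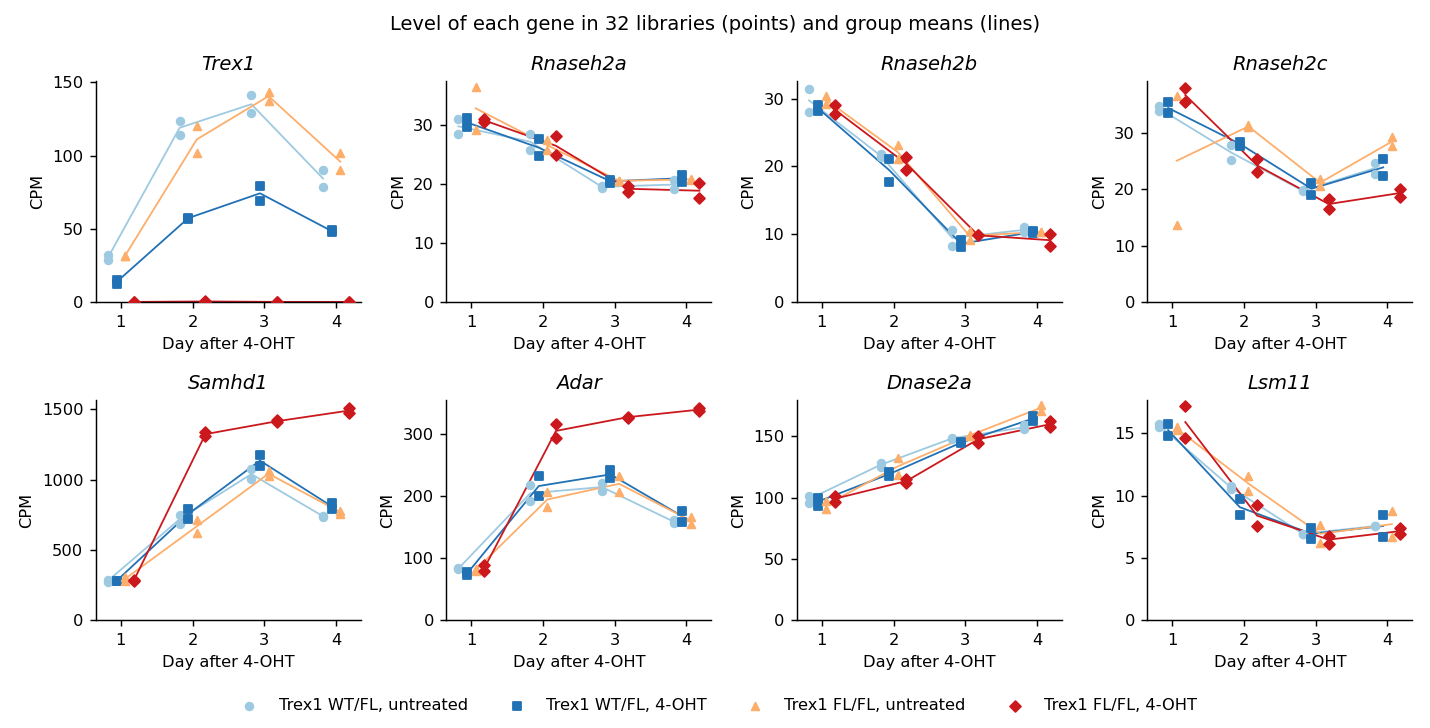
Level of the 8 genes in CPM (y axis, from 0) on days 1 to 4 after 4-OHT (x axis), with a point for each of the 32 libraries and a line through the 2-library mean of each group. Samhd1 and Adar after 4-OHT in Trex1 FL/FL BMDMs lie above all other groups from day 2, and Trex1 lies at or near 0 there. The remaining 5 genes follow a similar course in all groups, apart from Rnaseh2c. Rnaseh2c has a low point on day 1. Its mean after 4-OHT in Trex1 FL/FL BMDMs is the lowest on days 2 to 4 (19.3 CPM on day 4, against 23.7 to 28.4 CPM in the other groups).

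Trex1 (ENSMUSG00000049734.9, GRCm39 chromosome 9, 108887001 to 108888802, minus strand) is the targeted gene and checked the labels. In 4-OHT-treated Trex1 FL/FL BMDMs it had 0 and 0 counts on day 1, 14 and 9 on day 2, 0 and 0 on day 3, and 0 and 0 on day 4. In 4-OHT-treated Trex1 WT/FL BMDMs it had 885 and 758 counts on day 1, 2645 and 3116 on day 2, 3622 and 3556 on day 3, and 2830 and 2267 on day 4. The groups were thus separated on every day, by a factor of 192 on day 2 and, against 3 counts in the knockout library where these weigh most in CPM, by at least 217, 846 and 533 on days 1, 3 and 4. This floor covers counting error only.

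The control genotype also had less Trex1 mRNA after 4-OHT. In 4-OHT-treated Trex1 WT/FL BMDMs the level was 44.9%, 48.1%, 54.9% and 57.4% of that in untreated Trex1 WT/FL BMDMs on days 1, 2, 3 and 4. The log2 changes were -1.16 (SE 0.105), -1.06 (0.097), -0.87 (0.096) and -0.80 (0.098), with edgeR adjusted p-values of 6.77e-06, 1.34e-06, 1.44e-05 and 0.000197. On day 4 the call was at the threshold without replicate 1 of the 4-OHT-treated group (log2 -0.78, adjusted p = 0.01). The 4-OHT-treated genotypes are thus compared with controls at 44.9% to 57.4% of their untreated Trex1 level.

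Trex1 overlaps Atrip, which encodes the partner of the checkpoint kinase ATR, and all 1116 words of 31 bases in its annotated transcripts also occur in Atrip transcripts. Atrip stayed between 10.5 and 17.3 CPM in all 32 libraries. With both genes summed, Trex1 FL/FL BMDMs had 52.1%, 16.4%, 13.5% and 20.4% of the level of Trex1 WT/FL BMDMs on days 1 to 4 after 4-OHT, since Atrip then makes up most of the sum. The other members share less sequence with other genes. These shares were 1.40% for Lsm11, 2.59% for Samhd1, 6.37% for Rnaseh2b, 15.4% for Adar (all with Chrnb2), 22.5% for Rnaseh2c (all with Kat5), 28.9% for Rnaseh2a (most with Prdx2) and 34.1% for Dnase2a (most with Mast1). Chrnb2 did not exceed 2.13 CPM and Mast1 0.872 CPM in any library. Prdx2 had 143 to 202 CPM, above the 17.6 to 36.5 CPM of Rnaseh2a, and Kat5 had 25.6 to 45 CPM. The part of shared sequence in the levels of these members was not tested.

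Samhd1 (GRCm39 chromosome 2, 156939453 to 156977187, minus strand), the dNTP hydrolase, was higher in Trex1 FL/FL BMDMs from day 2 on. On day 1 it had 286 and 279 CPM in Trex1 FL/FL and 281 and 280 CPM in Trex1 WT/FL BMDMs after 4-OHT, and these values overlapped. On day 2 it stood at 1307 and 1337 against 793 and 718 CPM, on day 3 at 1408 and 1420 against 1094 and 1174 CPM, and on day 4 at 1472 and 1506 against 787 and 833 CPM. Both Trex1 FL/FL libraries lay above both Trex1 WT/FL libraries on each of these 3 days. Relative to the control the level was 1.75-fold on day 2 (log2 0.81, SE 0.064, edgeR adjusted p = 7.2e-10), 1.25-fold on day 3 (log2 0.32, SE 0.063, adjusted p = 0.000505) and 1.84-fold on day 4 (log2 0.88, SE 0.064, adjusted p = 1.71e-11). The day 3 call was lost without replicate 1 of the 4-OHT-treated Trex1 WT/FL group (log2 0.27, adjusted p = 0.0213), the lower of the 2 control libraries. In bulk RNA a change in the share of cells that express a gene and a change in RNA per cell cannot be told apart.

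The difference in Samhd1 did not stay constant. From day 1 to day 2 it grew by 0.80 on the log2 scale (SE 0.090, edgeR adjusted p = 1.71e-06), from day 2 to day 3 it shrank by a log2 change of -0.49 (SE 0.089, adjusted p = 0.00266), and from day 3 to day 4 it grew by 0.56 (SE 0.089, adjusted p = 0.000105). From day 1 to day 2 Samhd1 rose by 2.23 in Trex1 FL/FL and by 1.43 in Trex1 WT/FL BMDMs after 4-OHT. The Trex1 FL/FL libraries changed little after day 2, so that the later steps followed the Trex1 WT/FL libraries. In the latter Samhd1 peaked on day 3. The shrinking from day 2 to day 3 was not called in any of the alternatives that left out a library of day 2 or 3 other than replicate 1 of the Trex1 WT/FL groups (log2 -0.51 to -0.42, edgeR adjusted p = 0.0123 to 0.0298).

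Adar (GRCm39 chromosome 3, 89622329 to 89660753, plus strand), the RNA editing enzyme, was likewise higher on days 2 to 4. Its day 1 level after 4-OHT was 88.5 and 79.2 CPM in Trex1 FL/FL against 77.2 and 73.4 CPM in Trex1 WT/FL BMDMs, which did not overlap but was not called (log2 0.15, 95% interval -0.007 to 0.32, edgeR adjusted p = 1). It stood at 316 and 293 against 232 and 200 CPM on day 2, at 326 and 328 against 228 and 241 CPM on day 3, and at 336 and 342 against 159 and 176 CPM on day 4. None of these groups overlapped. The folds were 1.41 (log2 0.50, SE 0.077, edgeR adjusted p = 3.07e-05), 1.39 (log2 0.48, SE 0.077, adjusted p = 4.72e-05) and 2.02 (log2 1.02, SE 0.078, adjusted p = 5.45e-11) on days 2, 3 and 4.

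The change of the Adar difference from day 1 to day 2 was not called, although its interval lay above 0 (log2 0.34, 95% interval 0.12 to 0.57, edgeR unadjusted p = 0.00463, adjusted p = 0.0745). From day 2 to day 3 the Adar difference did not change detectably (log2 -0.019, 95% interval -0.24 to 0.20, adjusted p = 0.974). From day 3 to day 4 it grew by 0.54 (SE 0.109, adjusted p = 0.00171). This last call was lost without replicate 2 of the 4-OHT-treated Trex1 WT/FL group on day 3, without replicate 1 of that group on day 4, or without replicate 1 of the 4-OHT-treated Trex1 FL/FL group on day 3 (log2 0.47 to 0.53, edgeR adjusted p = 0.01 to 0.0229). Over all genes, a changed difference was called for 3.02% from day 1 to day 2, 0.905% from day 2 to day 3 and 3.7% from day 3 to day 4, among them Samhd1 at each step and Adar at the last. None of the 5 other non-Trex1 genes was called at any of these steps. Trex1 was called from day 2 to day 3 (edgeR adjusted p = 0.00171), when its Trex1 FL/FL libraries went from 14 and 9 counts to 0 and 0. That call was lost in some fits that left out a library. No fold is given for Trex1, whose Trex1 FL/FL libraries were at or near 0.

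**Figure D2:**
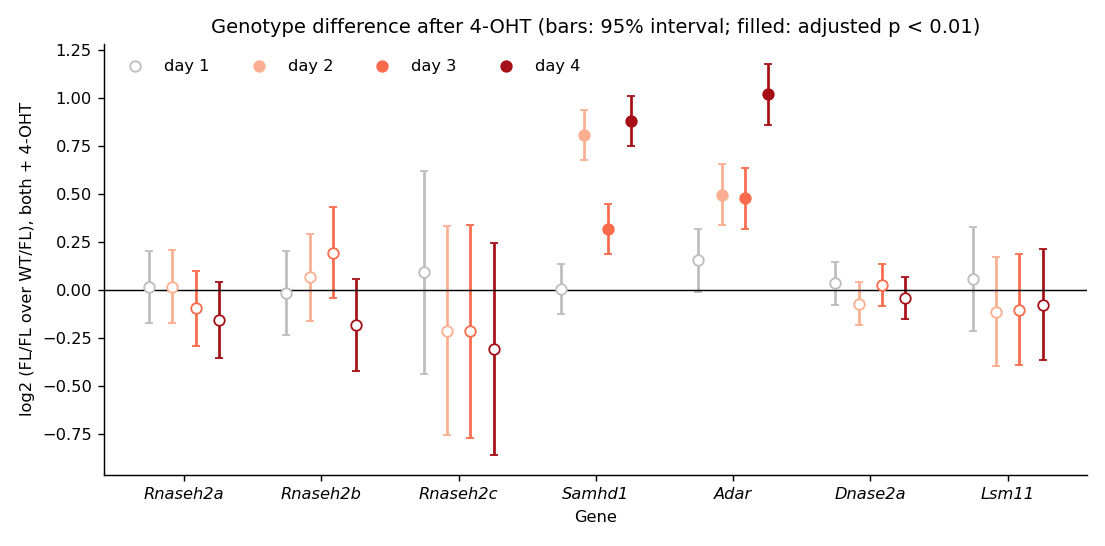
Log2 fold change of 4-OHT-treated Trex1 FL/FL over 4-OHT-treated Trex1 WT/FL BMDMs (y axis) for the 7 genes other than Trex1 (x axis) on days 1 to 4, with 95% intervals as bars and filled points for an edgeR adjusted p below 0.01. Filled points occur for Samhd1 and Adar on days 2 to 4, and the intervals of Rnaseh2c are the widest.

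Promoters were searched for short motifs that are known from IFN-regulated genes and from genes of the cell cycle. The RefSeq promoter table (GRCm38.p6) holds 10 windows for 7 of the 8 members, each from 250 bases before to 50 bases after an annotated start, and positions in GRCm39 come from an exact match of each window. The core of the IFN-stimulated response element, GAAANNGAA on either strand, occurred in 8.56% of the 32851 windows of all genes and, among members, in 1 of the 3 Adar windows alone. That window has its start at position 89638025 of chromosome 3 and holds a match 249 bases before and another 34 bases after the start. The gamma-activated sequence TTCNNNGAA, which reads the same on both strands, occurred in 8.3% of all windows and among members in Samhd1, in the same Adar window and in Rnaseh2a. TTTNNCGC, an E2F-like motif, occurred in 5.17% of all windows and among members in Rnaseh2a alone, where its match overlaps TTCNNNGAA. The matches to the response element and the gamma-activated sequence are shown because Adar and Samhd1 rose and Rnaseh2a serves as a contrast. Each stretch runs 5' to 3' in the direction of the gene, with the matched bases in capitals.
Adar, response element before the start, chr3:89637775-89637795, plus strand: gGAAAAGGAActtcctcacag
Adar, response element after the start, chr3:89638048-89638074, plus strand: tcaaggaaacGAAAGTGAActctgggg
Adar, gamma-activated sequence, chr3:89638037-89638066, plus strand: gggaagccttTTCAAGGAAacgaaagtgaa
Samhd1, gamma-activated sequence, chr2:156977232-156977261, minus strand: acaccaccctTTCGGAGAAacacaagggcg
Rnaseh2a, gamma-activated sequence, chr8:85692670-85692699, minus strand: cactgcagttTTCGCGGAAaacgcgcgctg
Both Adar stretches after the start overlap, and there the gamma-activated sequence ends just before the response element. These matches describe letters in the windows. Rnaseh2a has a match as well and was not called in any comparison between genotypes.

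The 3 genes of RNase H2 were not called between 4-OHT-treated genotypes on any day in the fit of all 32 libraries. Rnaseh2a (chromosome 8, 85683232 to 85696408), the catalytic subunit, had 30.6 and 31.0 against 29.7 and 31.2 CPM on day 1, 28.1 and 24.9 against 27.6 and 24.8 CPM on day 2, 19.7 and 18.7 against 20.2 and 20.7 CPM on day 3, and 17.6 and 20.1 against 20.4 and 21.6 CPM on day 4. The groups overlapped on days 1 and 2, and on days 3 and 4 the Trex1 FL/FL libraries were the lower pair. The log2 differences were between -0.15 (day 4, 95% interval -0.35 to 0.042) and 0.019 (day 2, 95% interval -0.17 to 0.21).

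Rnaseh2b (chromosome 14, 62530038 to 62630559), an auxiliary subunit, had 27.7 and 29.0 against 28.1 and 29.1 CPM on day 1, 21.3 and 19.4 against 17.7 and 21.1 CPM on day 2, 9.85 and 9.80 against 8.09 and 9.09 CPM on day 3, and 8.25 and 9.96 against 10.4 and 10.2 CPM on day 4. The groups overlapped on days 1 and 2. The Trex1 FL/FL libraries were the higher pair on day 3 (log2 0.20, 95% interval -0.043 to 0.43) and the lower pair on day 4 (log2 -0.18, 95% interval -0.42 to 0.060).

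Rnaseh2c (chromosome 19, 5651868 to 5657526), the other auxiliary subunit, had a result that depended on a single library and on the settings of the fit. After 4-OHT it had 35.4 and 38.0 CPM in Trex1 FL/FL against 35.4 and 33.4 CPM in Trex1 WT/FL BMDMs on day 1, 25.4 and 23.0 against 28.4 and 27.6 CPM on day 2, 18.3 and 16.4 against 19.0 and 21.2 CPM on day 3, and 20.0 and 18.7 against 25.4 and 22.4 CPM on day 4. Both Trex1 FL/FL libraries were below both Trex1 WT/FL libraries on days 2, 3 and 4. In the fit of all 32 libraries the log2 differences on these days were -0.21 (95% interval -0.75 to 0.33), -0.21 (-0.77 to 0.34) and -0.31 (-0.86 to 0.25), with edgeR adjusted p-values of 0.723, 0.66 and 0.433.

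The width of these intervals came with replicate 2 of untreated Trex1 FL/FL BMDMs on day 1, which had 13.6 CPM of Rnaseh2c, while the other 7 day 1 libraries had 33.4 to 38.0 CPM. Kat5, with which Rnaseh2c shares sequence, had 25.6 CPM in this library and 29.2 to 33.9 CPM in the others. In a fit without this library, chosen after its values were seen and with 15917 genes tested, the differences on days 2, 3 and 4 were -0.21 (SE 0.081), -0.21 (SE 0.083) and -0.31 (SE 0.083), with edgeR adjusted p-values of 0.0914, 0.075 and 0.00503. Rnaseh2c was thus called lower on day 4 in this fit, where 12.3% of all genes were called lower. With all libraries kept, Rnaseh2c was not called between 4-OHT-treated genotypes on day 4 without a filter on low counts (log2 -0.31, edgeR adjusted p = 0.0183). A fit of only the groups compared did not call it either (log2 -0.27, edgeR adjusted p = 0.0484). Kat5 had 40.6 and 39.5 CPM against 42.7 and 43.7 CPM on that day.

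Against untreated cells of the same genotype, Rnaseh2c in Trex1 FL/FL BMDMs was lower after 4-OHT by a log2 change of -0.36 on day 2 and -0.56 on day 4 in the fit without this library (edgeR adjusted p = 0.00161 and 4.05e-06). In these comparisons 3.99% and 11.9% of all genes were called lower. In the fit of all libraries the adjusted p-values were 0.414 and 0.128. With all libraries kept, it was also called lower in these comparisons without a filter on low counts (adjusted p = 0.00373 and 6.18e-07) and, on day 4, in a fit of only the groups compared (adjusted p = 0.000174). The difference between the genotypes' 4-OHT effects on day 4 was -0.57 in both fits. It had an adjusted p of 0.364 with this library and of 0.0006 without it, when 5.84% of all genes were called lower. With all libraries it was called without a filter (log2 -0.57, adjusted p = 0.0013) and in a fit of only the groups compared (log2 -0.53, adjusted p = 0.00787). Untreated Trex1 FL/FL BMDMs had 29.2 and 27.7 CPM of Rnaseh2c on day 4 and untreated Trex1 WT/FL BMDMs 22.7 and 24.7 CPM, so that part of this difference lay between the untreated groups.

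Dnase2a (chromosome 8, 85635189 to 85649544), the lysosomal DNase, had 96.7 and 101 against 93.5 and 99.8 CPM on day 1, 112 and 115 against 121 and 117 CPM on day 2, 150 and 145 against 144 and 145 CPM on day 3, and 162 and 157 against 162 and 166 CPM on day 4. The groups overlapped on days 1, 3 and 4, and on day 2 the Trex1 FL/FL libraries were the lower pair. The log2 differences lay between -0.071 (day 2, 95% interval -0.18 to 0.041) and 0.035 (day 1, 95% interval -0.076 to 0.15). Its intervals were the narrowest of the genes that were not called. The difference between the genotypes' 4-OHT effects on day 4 (log2 -0.18, 95% interval -0.34 to -0.024, edgeR adjusted p = 0.116) was not called.

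Lsm11 (chromosome 11, 45819091 to 45835787) had 17.1 and 14.6 against 14.8 and 15.7 CPM on day 1, 9.21 and 7.58 against 8.45 and 9.69 CPM on day 2, 6.78 and 6.16 against 6.49 and 7.37 CPM on day 3, and 6.92 and 7.39 against 6.69 and 8.43 CPM on day 4. The groups overlapped on all 4 days. The log2 differences lay between -0.11 (day 2, 95% interval -0.39 to 0.17) and 0.059 (day 1, 95% interval -0.21 to 0.33), so that a change of the size seen for Samhd1 on day 4 lies outside the intervals.

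In untreated cells the genotypes did not differ detectably in any member. edgeR called 0 of the 8 genes on each day, with an unadjusted p below 0.05 for 0, 0, 0 and 1 of them on days 1 to 4, and DESeq2 also called 0. Of all genes, 0% were called on days 1, 2 and 3 and 0.0655% on day 4. The log2 differences of Samhd1 were between -0.10 and 0.069 and those of Adar between -0.072 and 0.035. Untreated Trex1 FL/FL BMDMs had 101 and 90.3 CPM of Trex1 on day 4 and untreated Trex1 WT/FL BMDMs 78.6 and 89.9 CPM, a log2 difference of 0.19 (95% interval -0.012 to 0.39) that was not called. Dnase2a was the gene with an unadjusted p below 0.05 (log2 0.14 on day 4, edgeR adjusted p = 0.174). In the fit without the low library, Rnaseh2c had an unadjusted p below 0.05 on days 2 and 4 as well (log2 0.23 and 0.27, edgeR adjusted p = 1 and 0.0653), and was not called.

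After 4-OHT in the control genotype, none of the other genes was called. These cells also had active Cre and less Trex1 mRNA, which cannot be told apart from 4-OHT itself. Within Trex1 WT/FL BMDMs, Trex1 was the only member called on each of the 4 days, against 0.00655%, 0.0918%, 0.341% and 0.216% of all genes. Among the other 7 genes edgeR gave an unadjusted p below 0.05 for 0, 0, 0 and 1 on days 1 to 4, and DESeq2 called 0. That gene was Samhd1 on day 4, with 787 and 833 CPM after 4-OHT and 741 and 737 CPM without (log2 0.13, 95% interval 0.002 to 0.26, edgeR adjusted p = 0.682).

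Within Trex1 FL/FL BMDMs, Trex1 was the only member called on day 1 (0.0131% of all genes called), and Trex1, Samhd1 and Adar were called on days 2, 3 and 4 (11.1%, 15.7% and 21.4% of all genes). Samhd1 had 715 and 621 CPM without 4-OHT on day 2, 1057 and 1025 CPM on day 3, and 758 and 779 CPM on day 4, all below the libraries with 4-OHT. The log2 changes of Samhd1 were 0.98, 0.44 and 0.95 on these days (edgeR adjusted p = 8.37e-12, 5.47e-06 and 2.61e-12). Adar without 4-OHT had 206 and 183 CPM on day 2, 233 and 206 CPM on day 3, and 166 and 155 CPM on day 4, and its log2 changes were 0.65, 0.57 and 1.08 (edgeR adjusted p = 3.84e-07, 2.35e-06 and 1.52e-11). These comparisons share the 4-OHT-treated Trex1 FL/FL libraries with the comparison between genotypes.

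**Figure D3:**
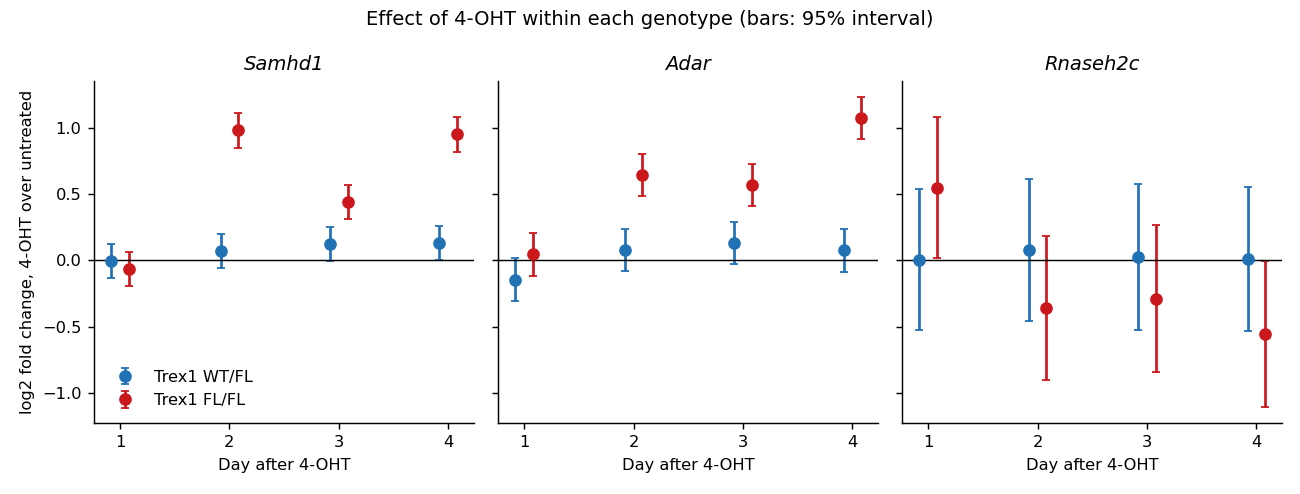
Log2 fold change of 4-OHT-treated over untreated BMDMs (y axis) on days 1 to 4 (x axis) for Samhd1, Adar and Rnaseh2c within each genotype, with 95% intervals as bars from the fit of all 32 libraries. Samhd1 and Adar lie between 0.44 and 1.08 in Trex1 FL/FL BMDMs on days 2 to 4 and between 0.072 and 0.13 in Trex1 WT/FL BMDMs on the same days, while the wide intervals of Rnaseh2c overlap between the genotypes.

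The effect of 4-OHT in Trex1 FL/FL BMDMs was then compared directly with that in Trex1 WT/FL BMDMs. On day 1 only Trex1 was called among the members (0.00655% of all genes). On day 2 Samhd1 (log2 difference of the effects 0.91, SE 0.090, edgeR adjusted p = 1.22e-07) and Adar (0.57, SE 0.109, adjusted p = 0.000862) were called besides Trex1, against 4.04% of all genes. On day 4 the same 3 genes were called against 10.4% of all genes, Samhd1 with 0.82 (SE 0.090, adjusted p = 1.14e-07) and Adar with 1.00 (SE 0.110, adjusted p = 1.27e-07). On day 3 (4.65% of all genes), Adar was called with 0.44 (SE 0.109, adjusted p = 0.00936) and Samhd1 was not, with 0.31 (95% interval 0.13 to 0.50, adjusted p = 0.0245), whereas DESeq2 called both. The Adar call of day 3 was close to the threshold and was lost when any of the 8 libraries of that day other than replicate 1 of untreated Trex1 FL/FL BMDMs was left out (log2 0.36 to 0.49, adjusted p = 0.0145 to 0.0878). On day 2 it was lost in a fit of only the 4 groups compared (adjusted p = 0.0172) and without replicate 1 of untreated Trex1 WT/FL, replicate 2 of 4-OHT-treated Trex1 WT/FL, replicate 2 of untreated Trex1 FL/FL or replicate 1 of 4-OHT-treated Trex1 FL/FL BMDMs (log2 0.47 to 0.51, adjusted p = 0.0107 to 0.0161).

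Of the 8 genes, 7 also changed with time in culture, in control cells as well. From day 1 to day 2, edgeR called Samhd1, Adar, Dnase2a, Rnaseh2b, Lsm11 and Trex1 in each combination of genotype and treatment. Of all genes, 38.4% and 38.5% were called in untreated Trex1 WT/FL and Trex1 FL/FL BMDMs and 38.6% and 41.1% in the same genotypes after 4-OHT. Rnaseh2a was called in untreated Trex1 FL/FL BMDMs only. There it had 29.1 CPM in replicate 1 of day 1 and 36.5 CPM in replicate 2, the library low in Rnaseh2c, whose part in this call was not tested. In 4-OHT-treated Trex1 FL/FL BMDMs, Trex1 went from 0 and 0 to 14 and 9 counts. In the 3 combinations that retain Trex1, its log2 rise was between 1.81 and 2.08. Samhd1 rose by 1.18 to 1.43 and Adar by 1.26 to 1.52 there, and by 2.23 and 1.86 where Trex1 was deleted. Dnase2a rose by 0.20 to 0.41, while Rnaseh2b and Lsm11 fell, by log2 changes of -0.43 to -0.56 and -0.49 to -0.92.

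From day 2 to day 3, Dnase2a, Rnaseh2a and Rnaseh2b were called in all 4 combinations, in which 34.9% and 36.9% (untreated Trex1 WT/FL and Trex1 FL/FL) and 36.3% and 33.1% (4-OHT-treated Trex1 WT/FL and Trex1 FL/FL) of all genes were called. Dnase2a rose by 0.23 to 0.38, and Rnaseh2a fell by log2 changes of -0.36 to -0.48 and Rnaseh2b by -1.05 to -1.20. Trex1 rose in untreated Trex1 FL/FL (0.34) and 4-OHT-treated Trex1 WT/FL BMDMs (0.37), and Lsm11 fell in the untreated cells of both genotypes (-0.66 in Trex1 FL/FL, -0.62 in Trex1 WT/FL). In 4-OHT-treated Trex1 FL/FL BMDMs, Trex1 was called lower at this step, from 14 and 9 counts to 0 and 0. Samhd1 rose by 0.53 to 0.64 in the 3 combinations that retain Trex1, and without Trex1 its change was 0.097 (edgeR adjusted p = 0.229).

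From day 3 to day 4, Trex1, Samhd1 and Adar fell together in the 3 combinations that retain Trex1, when 12.3%, 13.6% and 12.2% of all genes were called in untreated Trex1 WT/FL, untreated Trex1 FL/FL and 4-OHT-treated Trex1 WT/FL BMDMs. The log2 changes were -0.55 to -0.68 for Trex1, -0.44 to -0.49 for Samhd1 and -0.43 to -0.49 for Adar. In 4-OHT-treated Trex1 FL/FL BMDMs edgeR called 0 members at this step, with an unadjusted p below 0.05 for 1 and 0 calls by DESeq2, against 9.33% of all genes. Samhd1 and Adar changed there by 0.074 (edgeR adjusted p = 0.496) and 0.053 (adjusted p = 0.725). Dnase2a rose in untreated Trex1 FL/FL BMDMs (0.20, adjusted p = 0.00691). Its rise in 4-OHT-treated Trex1 WT/FL BMDMs (0.18, edgeR adjusted p = 0.0154) was called by DESeq2 but not by edgeR.

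Rnaseh2c was not called at any step in the fit of all libraries, although it went from 33.4 to 38.0 CPM on day 1, without the low library, to 16.4 to 21.8 CPM on day 3. Its intervals in that fit carry the spread of the low library.

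In untreated cells the level of Trex1 followed that of Adar and Samhd1 over the days. Across the 16 untreated libraries Pearson's r of log2 CPM was 0.994 between Trex1 and Adar, 0.969 between Trex1 and Samhd1 and 0.954 between Samhd1 and Adar. Rnaseh2a, Rnaseh2b and Lsm11 formed another set, with r of 0.923 to 0.949 among them. Their r with Trex1, Samhd1 and Adar was -0.672 to -0.919. Dnase2a had r of 0.740 to 0.861 with Trex1, Samhd1 and Adar and of -0.903 to -0.933 with Rnaseh2a, Rnaseh2b and Lsm11. These libraries come in pairs from 8 groups and share the course over 4 days, so that r describes this course and is given without a test. Over all 32 libraries Samhd1 and Adar had r of 0.974, and Trex1 had r of -0.191 with Adar and -0.135 with Samhd1.

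Per length of annotated exons, the members spanned a wide range in untreated cells. Trex1 and Samhd1 were highest, with a median of 88.6 and 80.7 CPM per kb over the 16 untreated libraries. Their ranges of 24.9 to 125 and 29.9 to 117 CPM per kb, which follow the days, overlapped. Dnase2a (median 23.1, range 15.0 to 28.9 CPM per kb) and Adar (median 21.5, range 9.71 to 28.6 CPM per kb) came next and overlapped as well. Rnaseh2c had a median of 10.6 and Rnaseh2a of 6.35 CPM per kb, and Rnaseh2b (1.5) and Lsm11 (1.47) were lowest, with overlapping ranges. The summed exon length covers all annotated transcripts and can exceed that of the transcript in use, which lowers the value of genes with many transcripts such as Rnaseh2b.

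**Figure D4:**
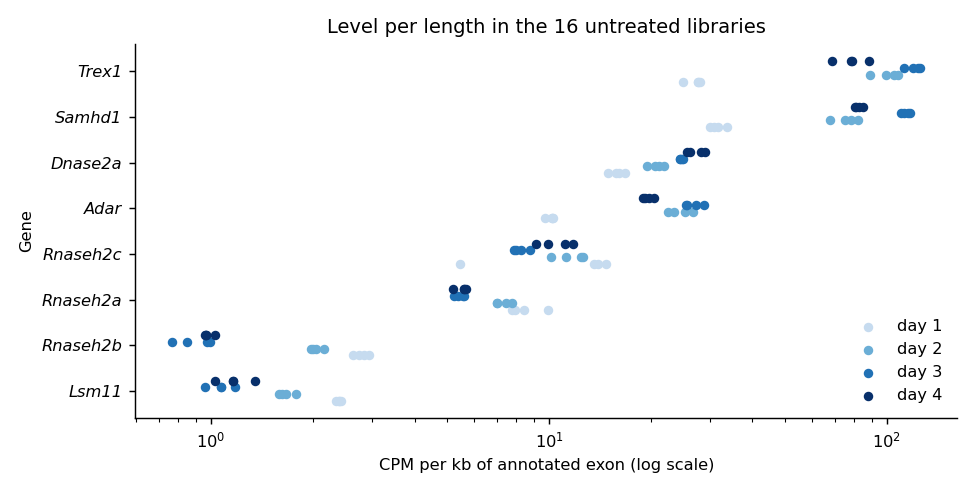
Level per length, in CPM per kb of annotated exon on a log scale (x axis), of the 8 genes (y axis, ordered by median) in the 16 untreated libraries, coloured by day. Trex1 and Samhd1 lie between 24.9 and 125 CPM per kb and rise after day 1, while Rnaseh2b and Lsm11 lie between 0.769 and 2.94 CPM per kb and fall.

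Genes with related roles were counted in the same comparison, in lists that were chosen with earlier results of these data known. Some genes stand in several lists, among them Isg15, Usp18 and Stat2 in the interferonopathy and the IFN-inducible lists. The counts of day 4 stand beside 9.84% of all tested genes called higher and 11.7% called lower. Of 20 other interferonopathy genes, the Trex1-deleted BMDMs had 12 higher and 2 lower on day 4, with a median log2 difference of 0.89 against -0.037 for all genes. Isg15, a ubiquitin-like ISG product, had 389 and 364 against 47.2 and 53.3 CPM (log2 2.91, edgeR adjusted p = 5.86e-09), and Usp18, its deconjugating protease and a brake on the IFN receptor, 230 and 214 against 31.0 and 36.8 CPM (log2 2.72, adjusted p = 4.93e-13). Copa (log2 -0.22) and Pola1 (log2 -0.33), which encode a coat protein of Golgi vesicles and the catalytic subunit of DNA polymerase alpha, were lower. On days 2 and 3 the list had 10 and 9 genes higher, beside 5.69% and 6.69% of all genes.

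Of 16 tested DNases and DNA exonucleases (Trex2, Dnase1 and Dnase2b did not pass the filter), 1 was higher and 3 were lower on day 4, beside 9.84% and 11.7% of all genes. Pld4, a lysosomal 5' exonuclease, was higher (982 and 945 against 640 and 680 CPM, log2 0.55, edgeR adjusted p = 8.29e-10), whereas its relative Pld3 was lower (443 and 446 against 561 and 575 CPM, log2 -0.35, adjusted p = 1.79e-06). Mre11a, a nuclease of double-strand break repair, was lower as well (log2 -0.36, adjusted p = 0.00067). The median of the list was -0.20.

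The list of lysosomal nucleic acid degradation, to which Dnase2a is related by its site of action, had 7 of 10 tested genes higher and 1 lower on day 4 (median log2 0.55), beside 9.84% and 11.7% of all genes. This list also holds genes of sensing and transport (Tlr7, Tlr9, Unc93b1 and Slc29a3). It shares Tlr7, Rnaset2a, Rnaset2b and Acp5 with the interferonopathy list and Pld3 and Pld4 with the DNase list, so that these counts are not separate. Tlr7, the endosomal sensor of single-stranded RNA, was higher (log2 0.88, edgeR adjusted p = 3.21e-10), and so was the RNase gene Rnaset2a (log2 0.64, adjusted p = 1.48e-06). Dnase2a itself stayed at a log2 difference of -0.041 on that day.

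Of 12 genes of RNA-DNA hybrid and ribonucleotide repair, 3 were lower on day 4 (11.7% of all genes) and the others were not called (median log2 -0.15). On days 2 and 3, 1 and 2 genes were higher, beside 5.69% and 6.69% of all genes. Pif1, a helicase (log2 -2.87, edgeR adjusted p = 3.2e-08, from 0.81 and 1.15 to 0.138 and 0.121 CPM), and Pole, the catalytic subunit of DNA polymerase epsilon (log2 -1.62, adjusted p = 1.77e-06), were among the genes lower on day 4. On day 3 Pif1 had been higher, with 0.731 and 0.838 against 0.419 and 0.402 CPM (log2 0.95, edgeR adjusted p = 0.00515). Of 15 genes of the dNTP pool, on which SAMHD1 acts, 3 were higher and 3 lower (median log2 -0.15), beside 9.84% and 11.7% of all genes. Rrm2, the regulated subunit of ribonucleotide reductase, had 1.91 and 1.57 against 11.5 and 10.9 CPM (log2 -2.67, edgeR adjusted p = 1.55e-15), and the thymidine kinase gene Tk1 was lower by a log2 change of -2.27 (adjusted p = 2.34e-07). Dck, the deoxycytidine kinase, was higher with 284 and 300 against 101 and 118 CPM (log2 1.42, adjusted p = 2e-12).

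Of 12 tested genes of double-stranded RNA editing and sensing, 5 were higher and 1 was lower (median log2 0.057). Zbp1, a sensor that shares a Z-form binding domain with ADAR, had 400 and 383 against 67.9 and 75.8 CPM (log2 2.45, edgeR adjusted p = 1.5e-09), and Dhx58, which encodes LGP2, was higher by 1.63 (adjusted p = 2.58e-11). The gene called lower was Stau1, which encodes a protein of RNA decay and transport (log2 -0.24, adjusted p = 0.000793). Of 14 tested genes of the U7 particle and histone mRNA 3' processing, 1 was higher and 3 were lower (median log2 -0.17), beside 9.84% and 11.7% of all genes. The named genes of this list, Cpsf1 (log2 -0.27), Cpsf3 (-0.25) and Cpsf2 (0.25), encode cleavage and polyadenylation factors and had differences no larger than these.

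Reference lists of IFN-inducible and proliferation genes give the state of the cells on the same days. On days 2, 3 and 4, 5.69%, 6.69% and 9.84% of all genes were called higher and 2.48%, 5.42% and 11.7% lower. Of 16 IFN-inducible genes, 15, 15 and 16 were higher on days 2, 3 and 4, with median log2 differences of 1.63, 1.30 and 2.80. Samhd1 and Adar thus differed between genotypes by less than the median of this list on each of days 2 to 4. Of 16 proliferation genes, 2, 3 and 14 were lower on days 2, 3 and 4, and 1 was higher on day 2 (median log2 -0.88 on day 4). Mki67 had 5.76 and 7.66 against 47.9 and 47.2 CPM on day 4 (log2 -2.83, edgeR adjusted p = 1.36e-15), and Pcna, the replication clamp, did not differ detectably on day 4 (log2 -0.055, adjusted p = 0.606) but was higher on day 2 (log2 0.44, adjusted p = 2.63e-05). Of the 8 macrophage markers, 2 were higher and 2 lower on day 4, with a summed level of 29450 and 31420 CPM in Trex1 FL/FL and 30940 and 31750 CPM in Trex1 WT/FL BMDMs. This sum was lower in Trex1 FL/FL BMDMs, without overlap, on day 2 (26590 and 28610 against 32010 and 34060 CPM) and day 3 (39310 and 38920 against 48070 and 45690 CPM), when 1 and 3 of the markers were called lower and 1 and 2 higher. None of the tested markers of other cell types was called by edgeR on any day. The part of the cell state in the results above was not tested.

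**Figure D5:**
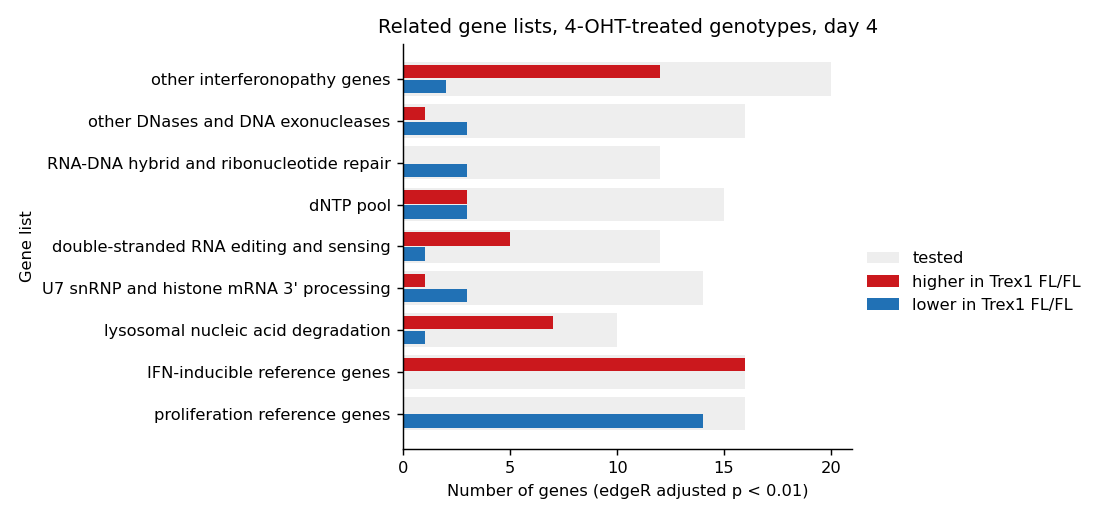
Number of genes (x axis) in each related list (y axis) that were tested (grey), higher (red) or lower (blue) between 4-OHT-treated genotypes on day 4, in the direction of Trex1 FL/FL relative to Trex1 WT/FL, at an edgeR adjusted p below 0.01. All 16 IFN-inducible genes were higher and 14 of 16 proliferation genes were lower. The lists closest to RNase H2 and LSM11 had 3 of 12 and 3 of 14 tested genes lower, and the latter had 1 higher. Of all genes, 11.7% were called lower and 9.84% higher.

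The genes most like each member were found by Pearson's r of log2 CPM over the 32 libraries, among 15145 genes, as a description. Among the genes most like Adar were Ifit2 and Parp9 (r of 0.997 each), both of them ISGs, and Samhd1 like Pde7b, Epsti1 and Gbp6 (r of 0.994 each). Rnaseh2b was most like Dbf4, Kpna2 and Atad2 (r of 0.990 to 0.991) and Rnaseh2a like Wdhd1, Ccne2 and Rpa1 (r of 0.967 each), of which Dbf4, Wdhd1, Ccne2 and Rpa1 act in DNA replication or the entry into S phase. Lsm11 was most like Rangrf, Xrcc6 and Tfdp1 (r of 0.969 to 0.974). Dnase2a was most like Ing4, Apoe and Ccl6 (r of 0.976 to 0.979), and Rnaseh2c like Scrib, Maz and Igsf8 (r of 0.925 to 0.934). For Trex1, Shisa5 led with r of 0.924. Shisa5 lies next to Trex1 on the opposite strand (chromosome 9, 108867633 to 108887029), and their annotated ends overlap.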

How the data were processed

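The authors used JE for demultiplexing, FastQC for quality control, Salmon for transcript abundance and tximport for the sum per gene, on GRCm39; their annotation release is not given in the sources used here. Its deposited values are whole-number estimated counts without normalization. Of 54281 identifiers, 51048 matched the GENCODE annotation, which gave symbols, coordinates and exon lengths, and the others held 0.32% of the counts. Groups came from the labels. Counts were tested with edgeR 4.0.16 (R 4.3.3; TMM, filterByExpr with a minimum count of 10, robust glmQLFit, glmQLFTest) with a mean for each of 16 groups, 16 residual degrees of freedom and Benjamini-Hochberg adjustment over 15257 genes, and the steps were tested on simulated data. The common biological coefficient of variation was 0.0912. Libraries of a group differed by more than sampling noise (chi-square per degree of freedom 8.55 to 47). Alternatives were DESeq2 1.42.0, RLE factors, other filters, thresholds and groups in the fit, and leaving out each library. The members, lists and tests were chosen with earlier results of these data known. Named genes were all members, from each list the 2 largest increases and decreases among genes called on day 4, reference genes, and the 3 genes most like each member. Some of these genes are not reported here.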

Additional observations from a re-analysis of the deposited data

Results flagged for a closer look

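Each value here is a difference between effects of the same contrast, on different days or in both genotypes, with an edgeR adjusted p below 0.01 for the difference itself. For Samhd1, the difference between 4-OHT-treated genotypes grew by 0.80 on the log2 scale from day 1 to day 2, changed by -0.49 from day 2 to day 3 and grew by 0.56 from day 3 to day 4. For Adar, it grew by 0.54 from day 3 to day 4. The effect of 4-OHT was larger in Trex1 FL/FL than in Trex1 WT/FL BMDMs by 0.91 on day 2 and 0.82 on day 4 for Samhd1, and by 0.57, 0.44 and 1.00 on days 2, 3 and 4 for Adar. For Trex1 on day 2, the only day with counts in both deleted libraries, this difference was -7.46 (adjusted p = 2.8e-15).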

How the results depend on the processing

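With the requirement of an absolute log2 fold change above 1.5, only Trex1 remained: the members called between 4-OHT-treated genotypes fell to 1 on each of days 2, 3 and 4, those called for 4-OHT within Trex1 FL/FL and for the difference of the 4-OHT effects fell to 1 on the same days, those called for 4-OHT within Trex1 WT/FL fell to 0 on all 4 days, and those whose difference changed were 0, 1 and 0 from day to day. Without a filter, Rnaseh2c was called as well on day 1, giving 2 members for 4-OHT within Trex1 FL/FL and 1 between untreated genotypes. There it was higher after 4-OHT (log2 0.54) and lower in untreated Trex1 FL/FL than in untreated Trex1 WT/FL BMDMs (log2 -0.45). Both comparisons include the library low in Rnaseh2c. The fit without a filter also called Rnaseh2c lower for 4-OHT within Trex1 FL/FL on days 2 and 4. For the difference of the 4-OHT effects on day 4 it was called lower as well. A fit of only the groups compared called it in both day 4 comparisons. With a minimum count of 50, 1 member was called for the difference of the 4-OHT effects on day 3. Summed with Atrip, Trex1 reached 52.1%, 16.4%, 13.5% and 20.4% of the control.

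When single libraries were left out, the number of members called on day 1 was 1 to 2 for 4-OHT within Trex1 FL/FL, 0 to 1 between untreated genotypes and 1 to 2 for the difference of the 4-OHT effects, with Rnaseh2c added without replicate 1 of untreated Trex1 FL/FL BMDMs of that day. It was 0 to 1 for 4-OHT within Trex1 WT/FL on day 4, 1 to 2 for the difference of the 4-OHT effects on day 3, and 0 to 2 and 1 to 2 for the change of the difference from day 2 to day 3 and from day 3 to day 4. Where a group was left with 1 library, it was taken to vary like the others. The genotype difference of Samhd1 and Adar on days 2, 3 and 4 stayed positive in all alternatives, with log2 values of 0.74 to 0.88, 0.27 to 0.37 and 0.84 to 0.92 for Samhd1 and of 0.40 to 0.60, 0.44 to 0.52 and 0.95 to 1.09 for Adar over the libraries left out.

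Some uncalled log2 values changed sign in fits that left out a library. Between 4-OHT-treated genotypes on day 1 these were Rnaseh2a (-0.019 to 0.052), Rnaseh2b (-0.047 to 0.016), Samhd1 (-0.012 to 0.025), Dnase2a (-0.012 to 0.082) and Lsm11 (-0.061 to 0.168). On day 2 they were Rnaseh2a (-0.073 to 0.102), Rnaseh2b (-0.055 to 0.199) and Lsm11 (-0.261 to 0.020), and on day 4 Lsm11 (-0.239 to 0.096). For the difference of the 4-OHT effects they were, on day 1, Rnaseh2a (-0.274 to 0.046), Rnaseh2b (-0.102 to 0.062, and 0.004 with only the groups compared), Rnaseh2c (-0.001 to 1.433, with 0.543 in the fit of all libraries), Samhd1 (-0.122 to 0.005) and Lsm11 (-0.037 to 0.191). On day 2 they were Rnaseh2a (-0.039 to 0.133), Rnaseh2b (-0.090 to 0.165) and Dnase2a (-0.136 to 0.025), on day 3 Rnaseh2b (-0.050 to 0.325), Dnase2a (-0.020 to 0.035, and -0.008 with a minimum count of 50) and Lsm11 (-0.243 to 0.058), and on day 4 Lsm11 (-0.290 to 0.099). The cause was not tested. No paired analysis was possible because the labels carry no replicate number.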
